A study of Mus musculus with 12 samples.

Results

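The galectin genes of the mouse proximal colon were examined in 12 animals, 6 EPR fl/fl and 6 EPR cKO. The 8 genes were the rows of the count table named Lgals1, Lgals2, Lgals3, Lgals4, Lgals8, Lgals9, Lgals12 and Lgals3bp, out of 55376 genes, and they were taken by name. All mice were 12 weeks old and carried the floxed EPR allele on both chromosomes. EPR is a long non-coding RNA of epithelial tissues that the count table lists as Smim31. EPR fl/fl mice, labelled wt, had no recombinase and were the controls. EPR cKO mice, labelled ko, carried in addition the CDX2P-NLS Cre transgene, whose CDX2 promoter restricts the recombinase to epithelial cells of colon, cecum and distal ileum, where the EPR promoter and exon 1 are removed. Total RNA came from whole frozen tissue of the proximal colon, so fat, muscle, nerves, vessels and immune cells contributed to every library beside the epithelium, to which Cre was targeted. Libraries had 13093904 to 33211041 counts.

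Galectins are lectins that bind beta-galactose-containing glycans through a conserved carbohydrate recognition domain. They are made in the cytosol and leave the cell without a signal peptide, and outside the cell they cross-link glycoproteins on cell surfaces, in mucus and in the matrix. Prototype galectins (Lgals1, Lgals2) have 1 recognition domain, tandem-repeat galectins (Lgals4, Lgals8, Lgals9, Lgals12) have a linked pair of them, and Lgals3 is the chimera type, which joins its domain to a long N-terminal tail. Lgals3bp is not a galectin but encodes a secreted, heavily glycosylated scavenger-receptor protein that galectins bind. In the intestine Lgals4, Lgals3 and Lgals2 are known as epithelial galectins, Lgals1 as a product of stromal cells, Lgals12 as a protein of adipocyte lipid droplets, and Lgals9 and Lgals3bp as genes that interferons induce.

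The promoters of Lgals9 and Lgals3bp are printed first because these genes varied together between animals, together with interferon-induced genes, and that of Lgals2 because it had the largest fold difference of the 8. RefSeq promoters (GRCm38.p6, the build known as mm10), which span 250 bases before and 50 bases from the transcription start, were found for 6 of the 8 genes, not for Lgals1 and Lgals12. All 3 genes lie on the minus strand, and the letters are given 5′ to 3′ on that strand, for chr11:78984875-78985174 (Lgals9), chr11:118401910-118402209 (Lgals3bp) and chr15:78855480-78855779 (Lgals2). Capitals in Lgals9 and Lgals3bp mark AANNGAAA, the core that interferon regulatory factors recognise, and GAAANNGAA, the core of the interferon-stimulated response element, searched on both strands and overlapping in Lgals9. Capitals in Lgals2 mark TTTATG, the core recognised by CDX factors.
Lgals9: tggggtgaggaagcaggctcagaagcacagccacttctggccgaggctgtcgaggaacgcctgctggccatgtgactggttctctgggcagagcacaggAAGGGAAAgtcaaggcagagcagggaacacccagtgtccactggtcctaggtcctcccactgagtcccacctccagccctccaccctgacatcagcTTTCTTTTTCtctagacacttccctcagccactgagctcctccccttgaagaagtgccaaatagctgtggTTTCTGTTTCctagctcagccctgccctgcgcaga
Lgals3bp: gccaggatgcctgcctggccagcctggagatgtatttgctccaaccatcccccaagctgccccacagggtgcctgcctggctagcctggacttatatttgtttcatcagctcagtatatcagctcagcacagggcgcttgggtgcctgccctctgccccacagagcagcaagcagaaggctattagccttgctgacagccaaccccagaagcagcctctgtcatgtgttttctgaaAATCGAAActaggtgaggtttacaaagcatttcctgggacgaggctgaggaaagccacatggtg
Lgals2: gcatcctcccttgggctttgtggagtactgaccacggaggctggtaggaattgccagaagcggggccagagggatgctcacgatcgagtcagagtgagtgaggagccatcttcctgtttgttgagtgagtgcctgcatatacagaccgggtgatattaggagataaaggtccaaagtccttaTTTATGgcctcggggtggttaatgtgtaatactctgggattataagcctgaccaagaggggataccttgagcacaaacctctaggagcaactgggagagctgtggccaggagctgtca

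The Lgals9 promoter held AANNGAAA at -151 on the printed strand and at -55 and 16 on the other strand, and GAAANNGAA at -54 and 17 on the other strand, each position being the first base as printed, counted from the start. The Lgals3bp promoter held AANNGAAA at -14 and no match to GAAANNGAA, and Lgals2 held TTTATG at -68. AANNGAAA was found in 24.2% of 27025 promoters of the same length, in 11 of the 14 promoters found for a list of interferon-induced genes, and in 2 of the 6 galectin promoters. GAAANNGAA was found in 8.57% of all promoters, in 10 of the 14 and in 1 of the 6, and TTTATG in 12.1% of all and in 1 of the 6. Among 11137 promoters of the genes tested below, the shares were 18.3% for AANNGAAA, 7.34% for GAAANNGAA and 6.55% for TTTATG. These matches are descriptions of letters, not sites.

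The target gene was examined first. EPR (Smim31) lay between 21.2 and 58.0 counts-per-million (CPM, scaled by trimmed mean of M values) with a median of 43.3 in EPR fl/fl, and between 0 and 0.423 with a median of 0.0896 in EPR cKO. Its log2 fold change was -8.09 (SE 0.47, edgeR adjusted p = 1.61e-06), so the labels held in every library. All 12 epithelial markers were tested and they summed to between 7924 and 12167 CPM in the controls and between 9702 and 14889 CPM in EPR cKO. The libraries also differed in tissue make-up. The mean log2 CPM of the epithelial markers minus that of 10 smooth muscle markers lay between 0.49 and 1.29 in the controls, at -0.43 in EPR cKO 1, and between 1.60 and 3.15 in the other 5 EPR cKO libraries. EPR cKO 1 thus stood apart from its group, and the galectin results are given with and without it where it changed a call. In such bulk samples, fewer cells of a type and less RNA per cell cannot be told apart.

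Of the 8 genes, all of which passed the filter of 1 CPM in at least 4 libraries, 1 was called at an adjusted p under 0.05 (edgeR quasi-likelihood test). It was Lgals12, which was reduced in EPR cKO. Over all 15952 tested genes 2.46% were called, 1.57% lower and 0.884% higher. An unadjusted p under 0.05 was reached by 4 of the 8 (Lgals1, Lgals2, Lgals3 and Lgals12) and by 18.3% of all tested genes. None of the 8 had all 6 libraries of 1 group above all 6 of the other, which was true of 2.47% of tested genes. The median log2 fold change was 0.11 over the 8 genes and 0.02 over all tested genes. Without EPR cKO 1, 4 of the 8 were called (Lgals1 and Lgals12 lower, Lgals2 and Lgals3 higher) where 21.8% of all tested genes were.

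**Figure D1:**
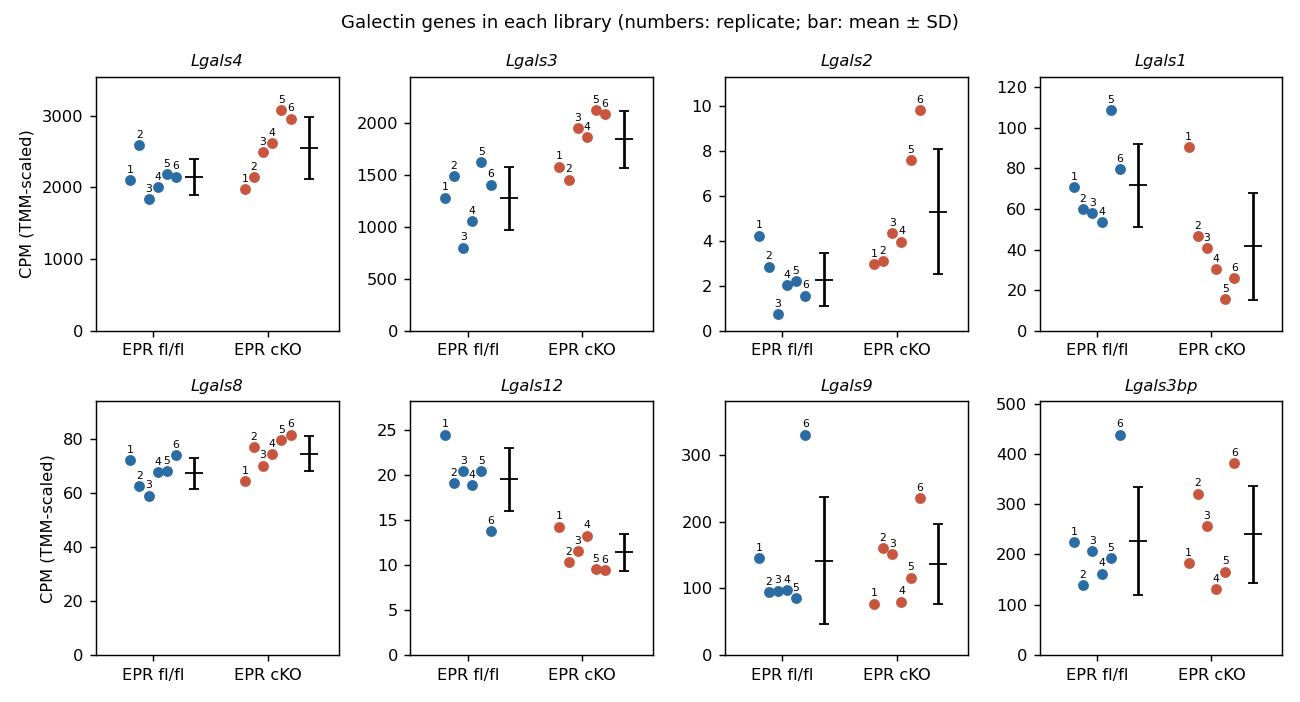
CPM (y axis, from 0) of each galectin gene in the 6 EPR fl/fl and 6 EPR cKO libraries, each point being 1 animal numbered by replicate, with the group mean ± SD beside the points. Lgals12 was lower in the EPR cKO libraries with overlap only between EPR cKO 1 (14.3 CPM) and EPR fl/fl 6 (13.8 CPM), while EPR fl/fl 6 was the highest library for Lgals9 and Lgals3bp.

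To compare levels between the genes, counts were divided by exon length and scaled to the same total in every library (TPM). In EPR fl/fl the proximal colon was dominated by Lgals4 (2415 ± 427 TPM, SD, n = 6) and Lgals3 (1254 ± 392 TPM), which took 58.7% and 29.8% of the TPM of the 8 genes. Lgals3bp (151 ± 73.3 TPM), Lgals1 (142 ± 56.7 TPM) and Lgals9 (135 ± 90.9 TPM) followed, and their order differed from library to library, so these 3 did not differ beyond their spread. Lgals8 (34.2 ± 4.99 TPM), Lgals12 (10.9 ± 1.96 TPM) and Lgals2 (5.72 ± 2.35 TPM) came last, each above the next in 6 of 6 EPR fl/fl libraries.

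In EPR cKO the same genes led, with Lgals4 at 2673 ± 939 TPM (56.0% of the 8) and Lgals3 at 1677 ± 556 TPM (35.4%). Lower down, Lgals12 (5.70 ± 1.02 TPM) was above Lgals2 (13.6 ± 9.35 TPM) in 1 of 6 libraries, where it had been above it in 6 of 6 controls, and Lgals1 (66.0 ± 24.0 TPM) was above Lgals9 (126 ± 73.4 TPM) in 1 of 6, where it had been in 4 of 6. TPM values carry no scaling between libraries and were used for the order of the genes only.

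The epithelial galectins were compared first. Lgals4 (mm10 chr7:28833854-28841708, plus strand, like the other gene positions from the annotation of that build), which is known for stabilising lipid rafts and apical transport in enterocytes, ranged from 1839 to 2593 CPM with a median of 2125 in EPR fl/fl, and from 1978 to 3075 with a median of 2553 in EPR cKO. Of the EPR cKO libraries 3 lay above every control and 3 within their range. The log2 fold change was 0.25 (SE 0.13) with an edgeR adjusted p of 0.317, so the difference was within the spread between animals.

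Lgals3 (chr14:47373813-47386160, plus strand) encodes the galectin that acts in cell adhesion, in the apical sorting of glycoproteins and at damaged vesicles. It ranged from 798 to 1625 CPM with a median of 1342 in EPR fl/fl, and from 1454 to 2121 with a median of 1905 in EPR cKO. All 6 EPR cKO libraries were above the control median and 4 were above every control, the other 2 (replicates 1 and 2) lying within the control range. The log2 fold change was 0.53 (SE 0.16), with an edgeR p of 0.0064 that did not hold after adjustment (0.114). Without EPR cKO 1 it was 0.55 with an adjusted p of 0.0378, and DESeq2 (adjusted p = 0.0396) and limma-voom with quality weights (0.0243) called it with all libraries. These fits also called more of all tested genes. Lower and higher genes numbered 251 and 141 in the main fit, 473 and 440 with DESeq2, and 1891 and 1372 with limma-voom. Without EPR cKO 1 the share called was 21.8%.

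Lgals2 (chr15:78850860-78855529, minus strand), a dimeric galectin of the gastrointestinal epithelium, was the rarest of the 8. It ranged from 0.727 to 4.24 CPM with a median of 2.13 in EPR fl/fl, and from 2.97 to 9.82 with a median of 4.16 in EPR cKO. EPR cKO 5 and EPR cKO 6, at 7.59 and 9.82 CPM, were the highest, and 3 of the 6 EPR cKO libraries lay within the control range. The lowest control value, in EPR fl/fl 3, rested on 23 counts (0.749 CPM on the total count, Wilson 95% interval 0.499 to 1.12, counting error only).

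Lgals2 had a log2 fold change of 1.24 (SE 0.40), equal to 2.36-fold, with an edgeR p of 0.00902 and an adjusted p of 0.134. It was called by DESeq2 (adjusted p = 0.0461), by limma-voom (0.0258) and without EPR cKO 1 (1.35, adjusted p = 0.0307). Each of these fits called more of all tested genes than the main fit, as given for Lgals3. The antisense gene Cdc42ep1 overlaps 6.42% of the exon bases of Lgals2, and whether counting used the strand is not stated, so some of its reads could belong to that gene.

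The epithelial galectins moved with one another and with epithelial markers from animal to animal. After the group means were removed, Pearson's r over 12 libraries was 0.76 between Lgals4 and Lgals3, 0.75 between Lgals2 and Lgals4 and 0.72 between Lgals2 and Lgals3. These points share their library and its tissue make-up, and the values are descriptions. Lgals4 had an r of 0.77 with the mean of 12 epithelial markers and of -0.79 with that of 10 smooth muscle markers, and Lgals3 had its highest r, 0.88, with 10 absorptive colonocyte markers. Of the epithelial markers 12 of 12 had higher estimates in EPR cKO and 0 were called, and of the absorptive markers 8 of 10 were higher and 0 called. Goblet cell markers went the other way, with 12 of 12 lower and 6 called, against 1.57% called lower over all tested genes.

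Set against the epithelial markers of the same library, the differences of these genes were smaller. For Lgals4 the log2 ratio to these markers averaged 2.06 ± 0.12 in the controls and 1.99 ± 0.16 after deletion, a difference of -0.07 (two-sided exact permutation p = 0.396, adjusted over 10 such tests 0.481). For Lgals3 the difference was 0.25 (exact p = 0.0649, adjusted 0.119) and for Lgals2 0.91 (exact p = 0.0433, adjusted 0.108). With all libraries none of the 3 ratios differed past the threshold, and without EPR fl/fl 1 that of Lgals2 did (1.12, adjusted exact p = 0.0289). In a fit with tissue make-up as a covariate the log2 fold changes were 0.0053 for Lgals4, 0.37 for Lgals3 and 0.61 for Lgals2, with edgeR adjusted p-values of 0.988, 0.359 and 0.516.

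**Figure D2:**
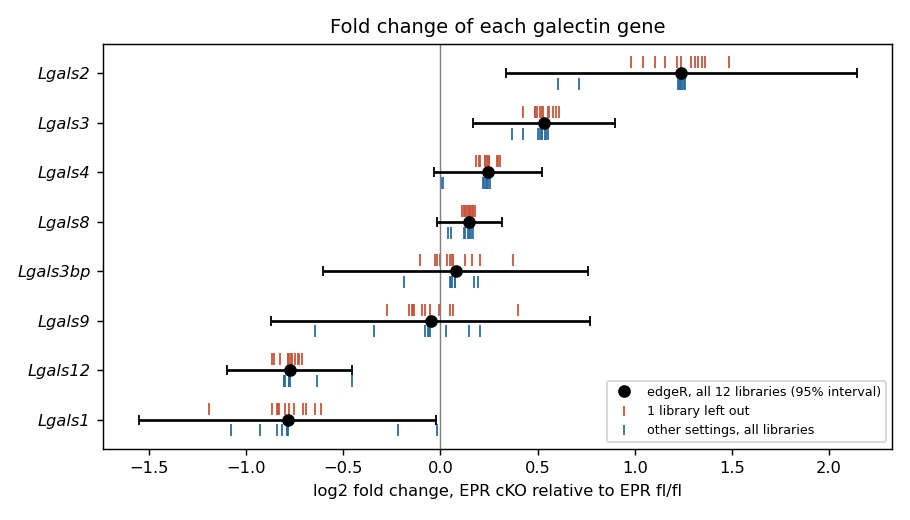
Log2 fold change (x axis, EPR cKO relative to EPR fl/fl) of the 8 genes, with the edgeR value over all 12 libraries and its 95% interval in black, fits that leave out 1 library as red ticks and other settings as blue ticks. The values run from -0.79 for Lgals1 to 1.24 for Lgals2, and the ticks of Lgals9 and Lgals3bp fall on both sides of 0.

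The genes most like each epithelial galectin across animals, by the same r, were Anxa2 (0.98), Capza2 (0.98) and Cab39 (0.96) for Lgals3, Sri (0.97), Ubl5 (0.96) and Pfdn1 (0.96) for Lgals4, and 2200002D01Rik (0.97), Apopt1 (0.97) and Mcm8 (0.97) for Lgals2. None of these 9 genes was called between the groups. Anxa2 encodes a calcium-dependent membrane-binding annexin and Sri the calcium-binding protein sorcin.

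Lgals8 (chr13:12439415-12464944, minus strand), whose protein detects damaged endosomes and lysosomes, was the steadiest of the 8. It ranged from 59.0 to 73.8 CPM with a median of 68.0 in EPR fl/fl, and from 64.2 to 81.6 with a median of 75.7 in EPR cKO. The coefficient of variation was 8.40% and 8.63% in the respective groups, and 4 of 6 EPR cKO libraries lay just above the highest control. This gave a log2 fold change of 0.15 (SE 0.08), with an edgeR adjusted p of 0.315. Its ratio to epithelial markers differed by -0.16 (exact p = 0.0844, adjusted 0.121), so that its sign depended on the reference. Of the 50-base stretches of its transcripts 3.87% also occur in another gene, and such reads could be split. The genes most like it were Snx2 (0.93), Bin2 (0.92) and Afg3l1 (0.92).

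Lgals1 (chr15:78926725-78930465, plus strand), the dimeric galectin of stromal cells and smooth muscle that dampens T cell responses, was lower in most but not all EPR cKO animals. It ranged from 53.5 to 109 CPM with a median of 65.4 in EPR fl/fl, and from 15.7 to 90.5 with a median of 35.5 in EPR cKO. Replicates 2 to 6 of EPR cKO, at 46.7, 40.8, 30.2, 15.7 and 26.0 CPM, all lay below every control, while EPR cKO 1, at 90.5 CPM, exceeded 5 of the 6 controls.

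Over all libraries the log2 fold change of Lgals1 was -0.79 (SE 0.34), with an edgeR p of 0.0389 and an adjusted p of 0.247. Without EPR cKO 1 it was -1.19 (SE 0.26) with an adjusted p of 0.00908, and limma-voom, which weights libraries by quality, gave -1.08 (adjusted p = 0.0136). Both fits called more of all tested genes than the main fit, as given for Lgals3. In edgeR Lgals1 was thus called only when EPR cKO 1, the library with the lowest ratio of epithelial to smooth muscle markers, was left out.

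Lgals1 varied with stromal markers. Over 12 libraries with group means removed its r was 0.95 with 10 fibroblast markers, 0.93 with smooth muscle markers, 0.90 with 8 markers of enteric neurons and glia, 0.87 with 8 endothelial markers and 0.87 with 8 adipocyte markers, and -0.42 with epithelial markers. Without EPR cKO 1 the r was 0.92 with fibroblast markers and 0.76 with adipocyte markers. With epithelial markers it was then 0.07. With all libraries kept, the r with epithelial markers was 0.53 within EPR fl/fl and -0.76 within EPR cKO, so the pooled value hid opposite signs. The summed fibroblast markers ran from 963 to 1719 CPM in EPR fl/fl, were 3064 CPM in EPR cKO 1 and ran from 474 to 1422 CPM in the other EPR cKO libraries, and 9 of 10 of these markers were lower in EPR cKO with 0 called. Their part in the Lgals1 difference was measured as a ratio within each library.

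For Lgals1 the log2 ratio to the fibroblast markers averaged 0.13 ± 0.21 in the controls and -0.30 ± 0.21 after deletion. The difference was -0.44, with an exact p of 0.00216, the smallest that the assignments of 6 of 12 libraries allow, and 0.0216 after adjustment. All 6 EPR cKO libraries, from -0.55 to -0.05, lay below all 6 controls, from -0.03 to 0.53, EPR cKO 1 included. Relative to epithelial markers the difference was -1.26 (exact p = 0.0152, adjusted 0.0505), and without EPR cKO 1 it was -1.60 (adjusted exact p = 0.0108). That ratio also holds the higher estimates of the epithelial markers in EPR cKO. With tissue make-up as a covariate the fold change of Lgals1 was -0.22 (edgeR adjusted p = 0.668), and with the mean of the adipocyte markers as a covariate it was -0.02 (0.988). The genes most like Lgals1 were Pdgfc (0.98), a platelet-derived growth factor, Nrp1 (0.98), a co-receptor for semaphorins and vascular growth factor, and Igfbp4 (0.98), a secreted binder of insulin-like growth factors, none of them called.

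**Figure D3:**
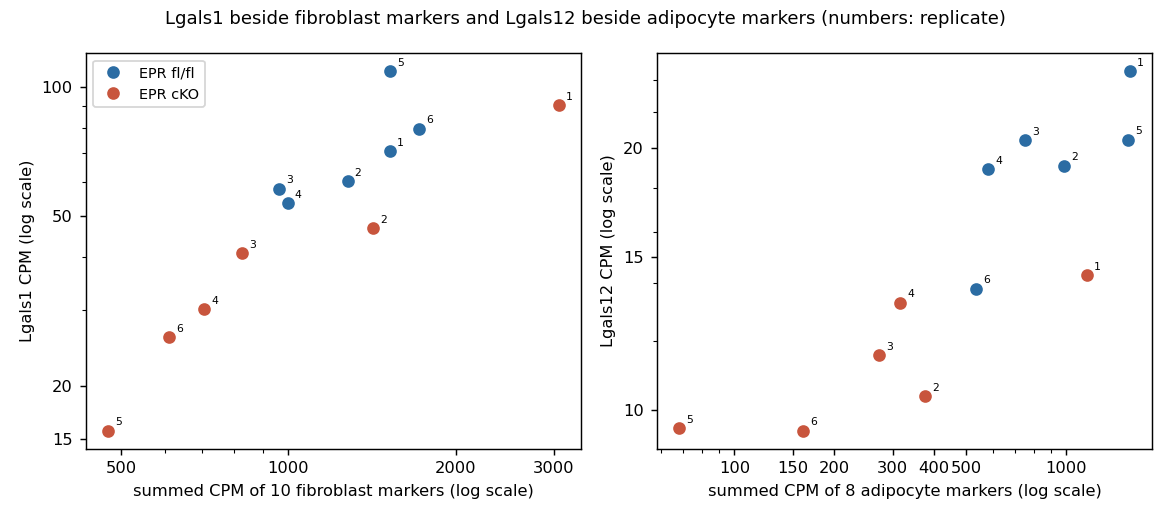
Left, CPM of Lgals1 against the summed CPM of 10 fibroblast markers, and right, CPM of Lgals12 against the summed CPM of 8 adipocyte markers, both on log axes with 1 numbered point per animal. EPR cKO 1 lies among or beyond the controls on both x axes (3064 and 1152 CPM), and Lgals12 in that library is 14.3 CPM against 13.8 to 24.5 CPM in the controls.

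Lgals12 (chr19:7596660-7607193, minus strand), known for a role on lipid droplets and in adipocyte differentiation, was reduced in EPR cKO. It ranged from 13.8 to 24.5 CPM with a median of 19.8 in EPR fl/fl, and from 9.45 to 14.3 with a median of 11.0 in EPR cKO. The groups overlapped only through EPR cKO 1, at 14.3 CPM, and EPR fl/fl 6, at 13.8 CPM, and 6 of 6 EPR cKO libraries were below the control median. The log2 fold change was -0.78 (SE 0.14), equal to 0.584 of the control level, with an edgeR adjusted p of 0.0133.

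The difference in Lgals12 did not rest on 1 animal. It was called in 12 of 12 fits that left out 1 library, with log2 fold changes from -0.87 to -0.71 and adjusted p-values from 0.00231 to 0.0375. Its log2 ratio to epithelial markers averaged -4.72 ± 0.38 in the controls and -5.80 ± 0.44 after deletion, a difference of -1.08 (exact p = 0.00433, adjusted 0.0216). The epithelial markers themselves had higher estimates in EPR cKO (12 of 12, median log2 fold change 0.30). This ratio therefore holds their difference too and is not a separate measure of Lgals12. Only 0.426% of its 50-base stretches also occur in another gene.

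Adipocyte markers moved with Lgals12. They summed to between 534 and 1555 CPM in the controls (median 869) and to between 68.2 and 1152 CPM in EPR cKO (median 294), and 8 of 8 markers, among them Adipoq and Plin1, were lower with 0 called and a median log2 fold change of -1.38. With group means removed, the r of Lgals12 with these markers was 0.77 over 12 libraries and 0.70 without EPR cKO 1, which had the most adipocyte RNA of its group. Lgals1 also had a high r with the same markers (0.87), so that fat markers were not particular to Lgals12. By rank (Spearman's rho, group means removed) the order was reversed, with 0.72 for Lgals1 and 0.86 for Lgals12. Pearson's r was 0.49 for Lgals1 and 0.77 for Lgals12 within EPR fl/fl, and 0.94 and 0.86 within EPR cKO. Without the 2 libraries of most extreme adipocyte marker level it was 0.51 for Lgals1 and 0.76 for Lgals12. Which gene followed these markers more closely thus depended on the measure. When their mean was entered as a covariate, the fold change of Lgals12 was -0.45 (SE 0.14, edgeR adjusted p = 0.213), and with tissue make-up as the covariate it was -0.63 (0.0639).

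Lgals12 nevertheless followed the fat markers with a smaller amplitude. Across the 12 libraries it covered a range from 9.45 to 24.5 CPM where the summed adipocyte markers covered 68.2 to 1555 CPM. Its log2 ratio to these markers averaged -2.01 ± 0.49 in the controls and -0.94 ± 1.23 after deletion, a difference of 1.08 (exact p = 0.0714, adjusted 0.119), which without EPR cKO 1 was 1.43 (adjusted p = 0.0108). The genes most like Lgals12 were 1700037H04Rik (0.91), Mib1 (0.91), an E3 ligase of Notch ligand endocytosis, and Cdo1 (0.90), a cysteine dioxygenase, none of them called.

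Lgals9 (chr11:78962974-78984946, minus strand), a ligand of the inhibitory receptor Tim-3 (Havcr2) on T cells and macrophages, differed far more between animals than between groups. It ranged from 85.8 to 331 CPM with a median of 96.8 in EPR fl/fl, and from 77.1 to 236 with a median of 134 in EPR cKO. The highest library was EPR fl/fl 6 at 331 CPM, followed by EPR cKO 6 at 236 CPM, and the groups overlapped widely. The log2 fold change was -0.05 (SE 0.37), with an edgeR adjusted p of 0.951 and a 95% interval of -0.87 to 0.77, and it was 0.40 without EPR fl/fl 6.

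Lgals3bp (chr11:118392751-118402092, minus strand) showed the same pattern. It ranged from 140 to 439 CPM with a median of 200 in EPR fl/fl, and from 131 to 381 with a median of 220 in EPR cKO, and again EPR fl/fl 6 (439 CPM) and EPR cKO 6 (381 CPM) were highest. Lgals3bp had a log2 fold change of 0.08 (SE 0.31), with an edgeR adjusted p of 0.905 and a 95% interval of -0.60 to 0.76, and it was 0.37 without EPR fl/fl 6. Intervals this wide leave room for differences of either sign. The ratios of Lgals9 and Lgals3bp to epithelial markers differed by -0.28 and -0.22 (exact p = 0.433 and 0.498, adjusted 0.481 and 0.498).

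Lgals9 and Lgals3bp varied with the interferon-induced genes whose promoter motifs are given above. With group means removed, r was 0.91 between Lgals9 and Lgals3bp, and each had an r of 0.94 with the mean of 20 interferon-induced genes, or 0.90 without EPR fl/fl 6. The summed level of these 20 genes was 3319 CPM in EPR fl/fl 6 and 537 to 1431 CPM in the other controls, and 466 to 1838 CPM in EPR cKO. Of the 20, all had lower estimates in EPR cKO and 0 were called, at the unadjusted p too, with a median log2 fold change of -0.26. These estimates include EPR fl/fl 6. The median summed level went the other way, at 888 CPM in the controls and 1041 CPM in EPR cKO, so the genes were not uniformly lower. The 12 points share their library, and the labels give no batch that separates the high animals.

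**Figure D4:**
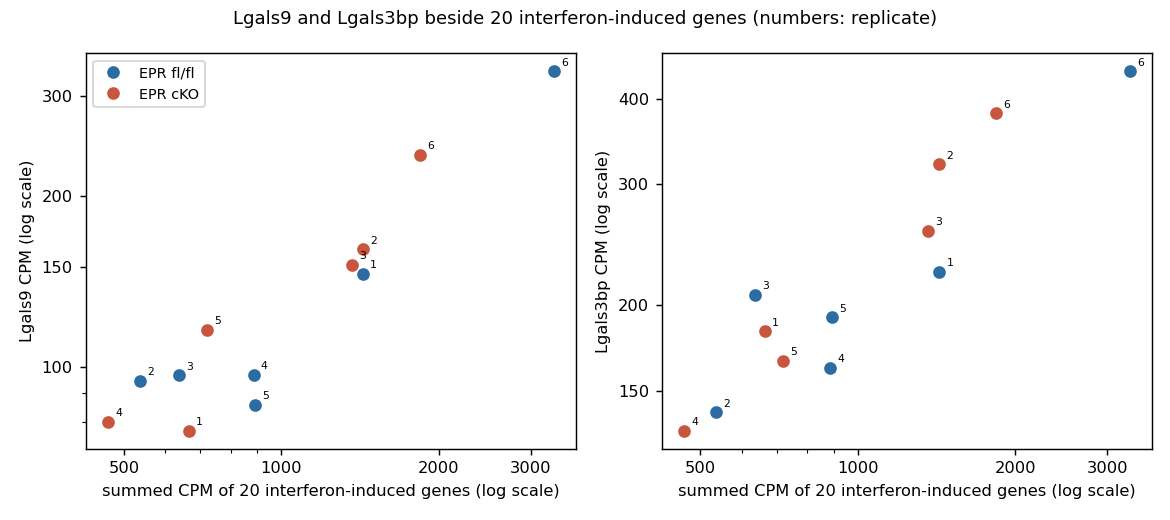
CPM of Lgals9 (left) and Lgals3bp (right) against the summed CPM of 20 interferon-induced genes, on log axes with 1 numbered point per animal. Libraries of both groups lie along a common line, from EPR cKO 4 (466 CPM) at the low end to EPR fl/fl 6 (3319 CPM) at the high end.

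When the mean of the interferon-induced genes was entered as a covariate, a setting chosen after seeing the data, the SE of the fold change fell from 0.37 to 0.13 for Lgals9 and from 0.31 to 0.12 for Lgals3bp. The log2 fold changes were then 0.15 and 0.17, with edgeR adjusted p-values of 0.524 and 0.423. The genes most like Lgals9 were Oas1a (0.99), Ifih1 (0.98) and Dhx58 (0.98), and those most like Lgals3bp were Oas3 (0.96), Trim30a (0.96) and Trim30d (0.96). Oas1a and Oas3 encode 2′-5′ oligoadenylate synthetase family proteins and Ifih1 and Dhx58 sensors of double-stranded RNA, and none of the 6 was in the list of 20 or was called. Promoters were found for 2 of the first 3 genes and for 3 of the second, and all of these held GAAANNGAA. The share was 7.34% over promoters of tested genes and 10 of 14 in the interferon-induced list. The Lgals3bp promoter itself held no match. These genes were picked for their r with Lgals9 or Lgals3bp, and a shared element was not tested.

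**Figure D5:**
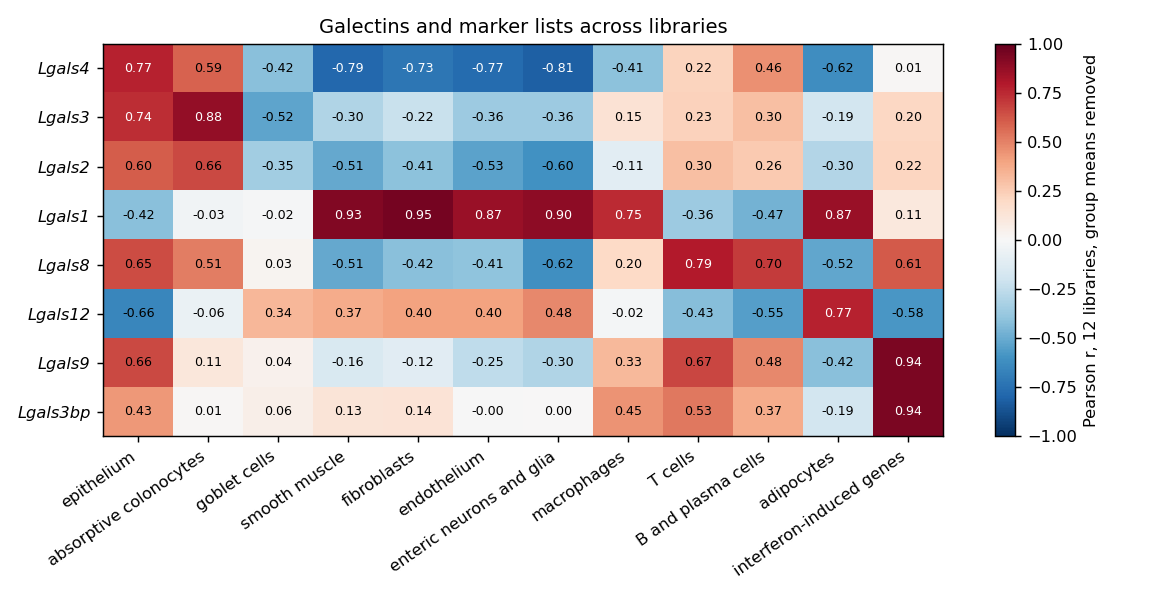
Pearson's r of each galectin gene (rows) with the mean of each marker list (columns) over 12 libraries after removal of group means, coloured from -1 (blue) to 1 (red). Lgals4, Lgals3 and Lgals2 are positive with epithelium, Lgals1 with fibroblasts (0.95) and adipocytes (0.87), Lgals12 with adipocytes (0.77), Lgals8 with T cells (0.79), and Lgals9 and Lgals3bp with interferon-induced genes (both 0.94).

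The 8 genes followed different markers. Lgals9 had an r of -0.72 with Lgals12 and of -0.14 with Lgals1, and Lgals1 had an r of -0.69 with Lgals4. Lgals8 had its highest r with T cell markers (0.79) and with B and plasma cell markers (0.70), followed by epithelial markers (0.65) and interferon-induced genes (0.61). Macrophage markers, which could carry Lgals3 and Lgals9, summed to between 202 and 526 CPM in the controls and between 171 and 358 CPM in EPR cKO, with 10 of 10 lower and 0 called. Over 12 libraries their r was 0.15 with Lgals3 and 0.33 with Lgals9. These pooled values hide opposite signs in the groups. For Lgals3 r was 0.69 within EPR fl/fl and -0.92 within EPR cKO, and for Lgals9 0.77 and -0.28. The part of macrophage markers in the galectin values was not tested further.

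Among the other family genes in the table, Lgalsl, a galectin-related gene, averaged 49.9 CPM in the controls and 60.1 CPM in EPR cKO, with a log2 fold change of 0.27 (SE 0.11, edgeR adjusted p = 0.221). Lgals7 had at most 14 counts in a library and Grifin at most 1, and neither was tested.

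The enzymes that build the glycans galectins bind were examined as a list of 16 genes. Of the 16, all tested, 2 were called lower and 0 higher, against 1.57% lower and 0.884% higher over all tested genes. The median log2 fold change of the 16 was 0.02. St6gal1, whose product adds alpha2,6-sialic acid to N-glycans and thereby blocks binding of several galectins, was reduced from 66.4 ± 5.95 to 21.9 ± 2.41 CPM (log2 fold change -1.60, SE 0.09, edgeR adjusted p = 1.61e-06). C1galt1c1, the chaperone of the core 1 O-glycan synthase, was reduced from 60.2 ± 4.79 to 42.6 ± 6.82 CPM (-0.50, SE 0.11, adjusted p = 0.0287). St6gal1 was called in 12 of 12 fits without 1 library, and C1galt1c1 in 4 of 12, the call being lost in the other 8. Without EPR cKO 1 the list had 3 called genes, where 21.8% of all tested genes were called. The branching enzymes Mgat1, Mgat2, Mgat3, Mgat4a, Mgat4b and Mgat5 ran from -0.26 to 0.13, and 0 were called.

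Of 22 genes for galectin partners and counter-receptors 20 were tested, and 1 was called lower and 0 higher, with a median log2 fold change of -0.05, against 2.46% called over all tested genes. The called gene was Dpp4, a cell surface peptidase, which averaged 38.1 ± 5.58 CPM in the controls and 27.2 ± 3.56 CPM in EPR cKO (-0.49, SE 0.11, edgeR adjusted p = 0.0403). It was called in 3 of 12 fits without 1 library, and not with no filter, the replicate block or the adipocyte covariate. Without EPR cKO 1 the list had 6 called genes, where 21.8% of all tested genes were called. The Lgals9 receptor gene Havcr2 was low in both groups, at 1.43 ± 0.811 and 1.02 ± 0.129 CPM, with an adjusted p of 0.457. Lamp1 and Lamp2, lysosomal glycoproteins that galectins bind, had log2 fold changes of -0.0081 and -0.06. Muc1 and Calcoco2 did not pass the filter.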

How the data were processed

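Total RNA depleted of ribosomal RNA was sequenced in 12 proximal colon libraries (Illumina stranded preparation, NovaSeq), 1 per animal. The authors trimmed the reads with Trimmomatic, aligned them with STAR 2.5.3a to mm10 and counted them per gene with featureCounts using Ensembl gene models. The deposited values are raw counts for 55376 genes, 36694 of them with any count, and 0 columns were left without a sample. Strand setting and multi-mapped reads are not given in the sources used here.

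Groups came from the labels. The low-count filter of the study (CPM of 1 or more in 4 or more libraries) was used. The 15952 genes that passed were tested with the edgeR 4.0.16 quasi-likelihood F test (R 4.3.3, TMM scaling, no covariate) and Benjamini-Hochberg adjustment over all of them. Each SE was the size of the log2 fold change over the square root of F, and log2 CPM values used a prior count of 2. Ratios within a library were the log2 CPM of a gene minus the mean log2 CPM of a marker list, compared by two-sided exact permutation over all assignments of 6 of 12 libraries and adjusted over 10 tests. Pearson's r was computed on log2 CPM after subtracting group means. Scripts were tested on simulated data. The common biological coefficient of variation was 26.1%.

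Alternatives were DESeq2 size factors, total counts, no filter, DESeq2 1.42.0, limma-voom (limma 3.58.1), a replicate block, a tissue composition covariate and leaving out each library. Covariates for adipocyte and interferon-induced genes were added after seeing the data. The galectins and all lists were chosen with earlier results of these data known. Named genes were the 8 members, EPR, called genes of the pathway lists and the 3 genes most like each member. Any other gene named was chosen after their values were seen.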

Additional observations from a re-analysis of the deposited data

Results flagged for a closer look

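Lgals9 in EPR fl/fl 6, at 331 CPM, lay far from the other controls, the nearest of which had 146 CPM, so the gap took 0.756 of the range of the group, above the 95% critical value of Dixon for 6 samples. Lgals3bp in the same animal, at 439 CPM against 224 CPM for the nearest control, had a gap of 0.718 of the range. Of 16 sets of 6 values examined, 2 were past this limit, where chance alone gives about 0.8. These 2 sets are not independent, as they hold the same animal and 2 genes with an r of 0.91. The gaps were taken on CPM, and the flag applies to that scale only. On log2 CPM, the scale of the ratios and of r, each gap takes a smaller share of the range. The same library had the highest summed level of 20 interferon-induced genes, 3319 CPM, and without it the log2 fold changes were 0.40 for Lgals9 (edgeR adjusted p = 0.456) and 0.37 for Lgals3bp (0.455). The part of these genes in the outlying values was not tested.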

How the results depend on the processing

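Lgals12 stayed called in 7 of 9 other settings and in 12 of 12 fits without 1 library. The exceptions were the tissue composition covariate (-0.63, edgeR adjusted p = 0.0639) and the adipocyte covariate (-0.45, 0.213). Lgals4 and Lgals8 kept their direction and were not called in any setting. Lgals2 was called by DESeq2 (1.23) and limma-voom (1.26), Lgals3 by DESeq2 (0.53) and limma-voom (0.54), and Lgals1 by limma-voom (-1.08). Without 1 library, log2 fold changes ran from -1.19 to -0.62 for Lgals1, 0.98 to 1.49 for Lgals2 and 0.43 to 0.61 for Lgals3, and each became called once, without EPR cKO 1.

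The sign of Lgals9 and Lgals3bp was not fixed. Lgals9 was -0.05 and turned positive with limma-voom (0.20), the replicate block (0.031) and the interferon covariate (0.15), and without EPR fl/fl 6 (0.40), EPR cKO 1 (0.05) or EPR cKO 4 (0.07), within a range of -0.27 to 0.40 over fits without 1 library. Lgals3bp was 0.08 and turned negative with the adipocyte covariate (-0.19) and without EPR fl/fl 2 (-0.03), EPR fl/fl 4 (-0.00051), EPR cKO 2 (-0.02) or EPR cKO 6 (-0.10), within a range of -0.10 to 0.37. Neither was called in any setting.

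Counts of called genes moved more. The 251 lower genes became 473 with DESeq2 and 1891 with limma-voom, and 145 to 2273 without 1 library. The 141 higher genes became 39 with total counts, 54 with no filter, 440 with DESeq2, 1372 with limma-voom, 67 with the replicate block and 84 with the tissue composition covariate, and 31 to 1178 without 1 library. Among the fits without 1 library, both counts were highest without EPR cKO 1. Of the 8 galectins, DESeq2 called 3 and limma-voom 4, and 0 were called with either the tissue or the adipocyte covariate. The glycan synthesis list had 1 to 3 called genes, and the partner list 0 to 6.

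Ratios within a library kept their direction. Lgals1 relative to epithelium was called with the median of the markers (-1.26, adjusted exact p = 0.0433) and without EPR cKO 1 (-1.60, 0.0108), and ran from -1.60 to -0.99 without 1 library. Lgals2 relative to epithelium ran from 0.69 to 1.12 and was called without EPR fl/fl 1 (1.12, adjusted exact p = 0.0289). Lgals12 relative to adipocytes ran from 0.69 to 1.43 and was called without EPR cKO 1 (1.43, 0.0108). Replicate numbers were shared by label only: same-number libraries deviated together with r from -0.24 to 0.34, and the best partner had the same number for 2 of 6. With the replicate block the ratios of Lgals12 to epithelium (-1.08) and of Lgals1 to fibroblasts (-0.44) had an adjusted exact p of 0.156. Swapping labels within 6 pairs allows no two-sided p below 0.0312, so after adjustment over 10 tests the block could hardly pass and says nothing about their stability. The cause of the other changes was not tested. Total counts in place of TMM shifted the median of all genes by -0.03. Depth limits Lgals2 most, with 23 counts in its lowest library.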
